A study of Homo sapiens with 12 samples.

Results

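The genes of asparagine-linked glycosylation and of the lectin chaperones that read its glycans were followed in HEK293T cells, a transformed human embryonic kidney line that carries the SV40 large T antigen. The set held 42 genes, named by symbol and chosen for their roles in the pathway, of 23292 genes in all. It spanned hexosamine supply, the making of the dolichol-linked glycan, the oligosaccharyltransferase, glycan trimming and the calnexin cycle. All 42 symbols were found.

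The study asked how AA263 and its analogs, small molecules described as activators of the stress sensor ATF6, change transcription in these cells. The 4 groups, of 3 samples each, were given DMSO as vehicle (Veh), AA263, AA263yne or AA263-5, with each compound at 10 µM and every group taken at 6 h. The cells of all groups were wild type, and the labels name them HEK293T as a line and HEK293 in the growth protocol. The only measurement used here was the authors' mean normalized value of each gene over all 12 samples, a scaled read count. That mean joins 9 treated and 3 vehicle samples, so it has no replicate error, and the compounds are not compared with vehicle or with each other here. A higher level of a gene below is therefore a higher level over the whole experiment, and an order of genes could not be weighed against the spread between samples. Reading depth per sample is not known from these values.

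N-glycosylation attaches a preassembled glycan to asparagines of proteins as they enter the endoplasmic reticulum (ER). The glycan is built on the lipid dolichol, sugar by sugar, at the cytosolic and then at the lumenal face of the ER membrane, and is moved to the protein by the oligosaccharyltransferase. Glucosidases then trim it to a form that calnexin and calreticulin bind, and UGGT enzymes put a glucose back on proteins that are still unfolded, so that they return to these chaperones. ATF6, when released from the ER membrane by cleavage, acts with the factor NF-Y at a promoter motif known as the ER stress element (ERSE), which is why that motif was searched for in these promoters.

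An exact ERSE, that is CCAAT, then 9 free bases, then CCACG, stood in the promoter of 3 of the 38 genes with a RefSeq promoter entry on GRCh38.p14, namely ALG12, CALR and CANX. The promoter was taken as 250 bases before to 50 bases after a transcription start, and both strands were read. Over all 27305 genes with such an entry, 25 held the motif (0.0916%), and of the 11173 whose mean normalized value reached 10 it was 18 (0.161%), against 7.89% of the 38. The 3 sites are shown because they are the only exact ERSE matches in the set, with the fixed letters in capitals and each read on the strand that carries the motif.
ALG12: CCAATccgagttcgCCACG
CALR: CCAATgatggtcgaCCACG
CANX: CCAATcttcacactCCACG
The ends are alike by the rule of the search, while the stretch between them differed in every pair. A match is a description of letters and not a measured binding site. The motif is a textbook pattern, and whether promoters of these genes helped to define it was not checked. The shares are therefore a description and not an independent test.

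The promoters themselves are given 5′ to 3′ in the direction of each gene, with the whole site in capitals, so that its place can be seen. CALR, which encodes calreticulin, lies at chr19:12938578-12944489 (GENCODE 44 on GRCh38, as for the genes below) with 9 exons, and its promoter window is chr19:12938359-12938658 on the plus strand. Its ERSE is at chr19:12938384-12938402, runs on the opposite strand and ends 206 bases before the start, so the capitals show it reversed and complemented.
CALR promoter: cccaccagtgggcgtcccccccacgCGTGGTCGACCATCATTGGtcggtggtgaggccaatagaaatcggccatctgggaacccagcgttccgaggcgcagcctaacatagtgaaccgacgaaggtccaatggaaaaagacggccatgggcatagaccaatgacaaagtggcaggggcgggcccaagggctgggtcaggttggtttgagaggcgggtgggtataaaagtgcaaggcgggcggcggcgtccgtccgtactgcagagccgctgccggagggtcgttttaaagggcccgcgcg
CANX, which encodes calnexin, lies at chr5:179678628-179731641 with 15 exons. RefSeq gives 3 start sites whose windows hold the same ERSE at chr5:179698778-179698796, and the window printed is chr5:179698679-179698978 on the plus strand, in which the site ends 132 bases before the start. From the most downstream start it ends 170 bases away, and it spans the most upstream start itself.
CANX promoter: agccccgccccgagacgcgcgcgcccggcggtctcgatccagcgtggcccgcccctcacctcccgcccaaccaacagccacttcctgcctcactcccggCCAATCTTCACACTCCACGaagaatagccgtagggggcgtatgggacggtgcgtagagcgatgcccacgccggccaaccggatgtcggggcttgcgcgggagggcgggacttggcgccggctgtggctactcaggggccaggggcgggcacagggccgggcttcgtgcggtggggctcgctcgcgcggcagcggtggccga
ALG12, which encodes a lumenal mannosyltransferase, lies at chr22:49900229-49918438 with 10 exons. Its window is chr22:49918389-49918688 on the minus strand, and its ERSE at chr22:49918554-49918572 ends 115 bases before the start.
ALG12 promoter: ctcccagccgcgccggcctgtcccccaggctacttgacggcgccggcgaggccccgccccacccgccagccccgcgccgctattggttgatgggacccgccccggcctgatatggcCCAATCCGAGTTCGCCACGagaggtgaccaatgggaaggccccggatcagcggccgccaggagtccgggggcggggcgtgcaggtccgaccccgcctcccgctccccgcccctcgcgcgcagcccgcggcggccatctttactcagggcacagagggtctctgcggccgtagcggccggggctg
The ALG12 site also lies in the promoter window of CRELD2, an ER stress gene that starts next to ALG12 and runs the other way. CRELD2 had a mean normalized value of 3336, or 2336 per kilobase, and ALG12 had 1738, or 326 per kilobase.

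Further motifs of ER stress and of promoters in general were searched in the same windows. ERSE-II, that is ATTGG, 1 free base, then CCACG, stood in 0 of the 38 promoters against 0.134% of the 11173 genes with a mean of at least 10. TGACGTGG, the core of the UPRE that XBP1s and ATF6 can bind, was in 0 against 1.20%, and TTGCATCA, a form of the CARE element read by ATF4 and CHOP, was in 0 against 0.707%. These zeros say only that the exact letters are not in these windows, and with 1 mismatch allowed the UPRE letters were in 16 of the 38 (42.1% against 24.8%). CCAAT, which is part of the ERSE and, reversed, of ERSE-II, was in 23 of the 38 (60.5%) against 42.9%. The GC box GGGCGG was in 31 (81.6%) against 76.1%. TATAAA was in 3 (7.89%) against 8.33%, in ALG3, CALR and DPM1, so CALR held a TATA box as well as an ERSE. The median GC content was 62.7% over the 38 promoters and 64.7% over the 11173, with OSTC lowest at 43.7% and GNPNAT1 highest at 79.3%. Of the 25 other genes of the pathway with a promoter entry, 0 held an exact ERSE.

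As a group the 42 genes were well expressed. Their mean normalized values ran from 393 for ALG11 to 45156 for CALR, a 115-fold span, with 35 genes at 1000 or more and 8 at 10000 or more. Together they made up 0.689% of the sum over all genes, which was 36.6 M. The 8 most abundant (CALR, CANX, RPN1, STT3A, RPN2, PRKCSH, GANAB and DDOST) held 66.5% of the sum of the 42, and CALR with CANX held 31.6%. To compare genes of unequal length, each value was divided by the length of the gene's canonical transcript, which gives the level per kilobase. On this scale 36 of the 42 were above the median of all 14050 genes with a mean of at least 10 (206 per kilobase), where 7025 of the 14050 are so by definition. The upper quartile of all genes (686 per kilobase) was passed by 25 of the 42, and 13 stood in the highest 10% (1944 per kilobase or more). The members nearest the median from above were PGM3 at 219, PMM2 at 287 and ALG12 at 326 per kilobase. Those nearest it from below were GNPNAT1 at 196, UGGT2 at 189 and GFPT1 at 162 per kilobase. The plot of levels by role shows all 42, and the histogram of all genes shows where they fall.

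**Figure D1:**
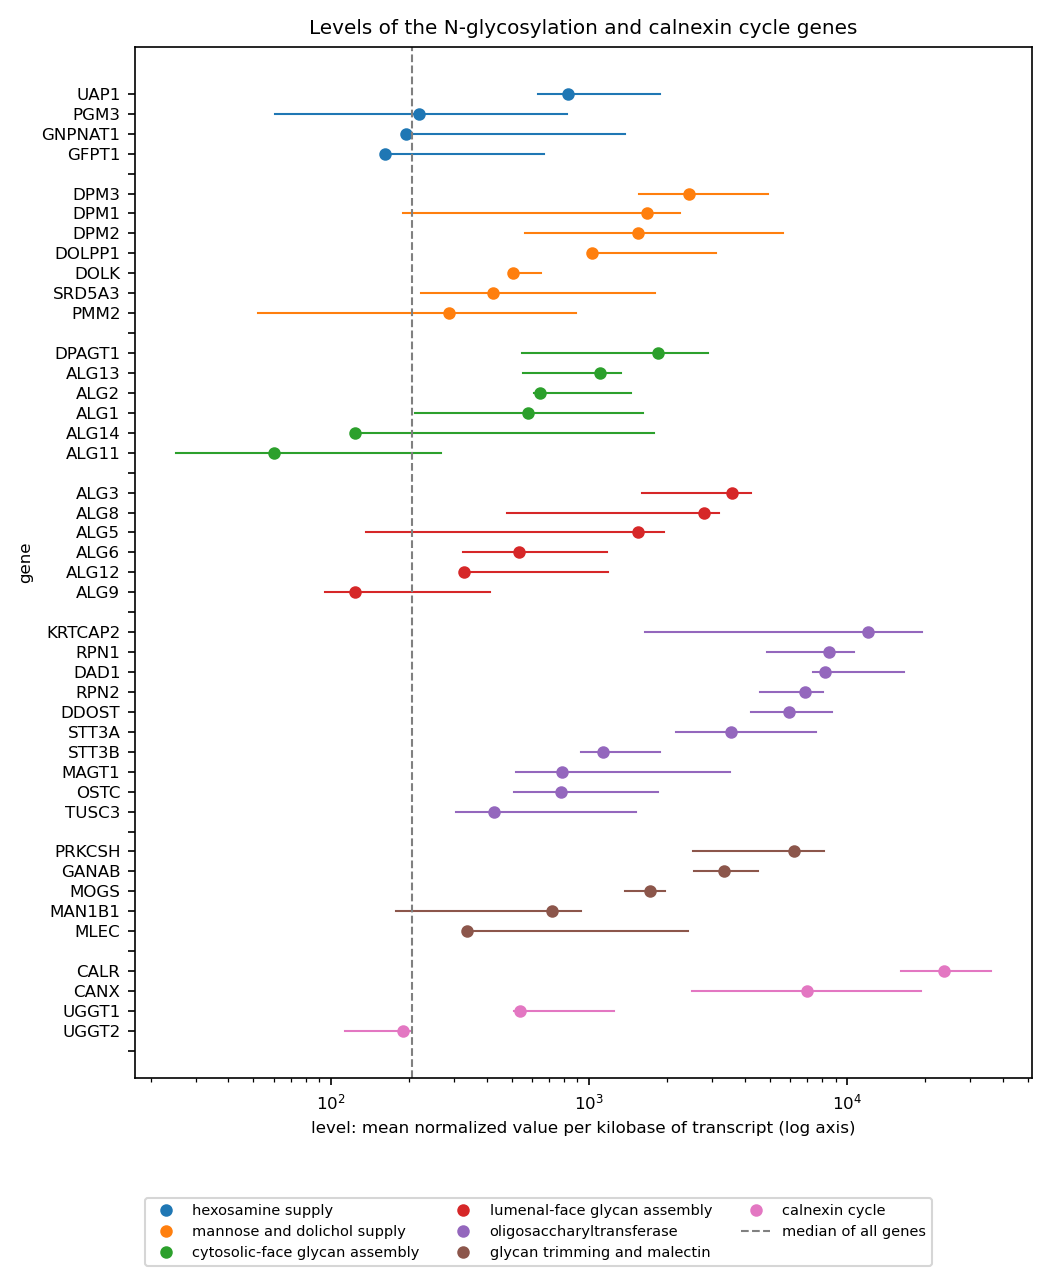
Level of each of the 42 genes, by role, as the mean normalized value per kilobase of transcript on a log axis. Points use the canonical transcript, lines run from the lowest to the highest of 5 measures of transcript length and are no replicate error, and the dashed line is the median of all 14050 genes (206). CALR is the rightmost point at 23754 and ALG11 the leftmost at 60.3.

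**Figure D2:**
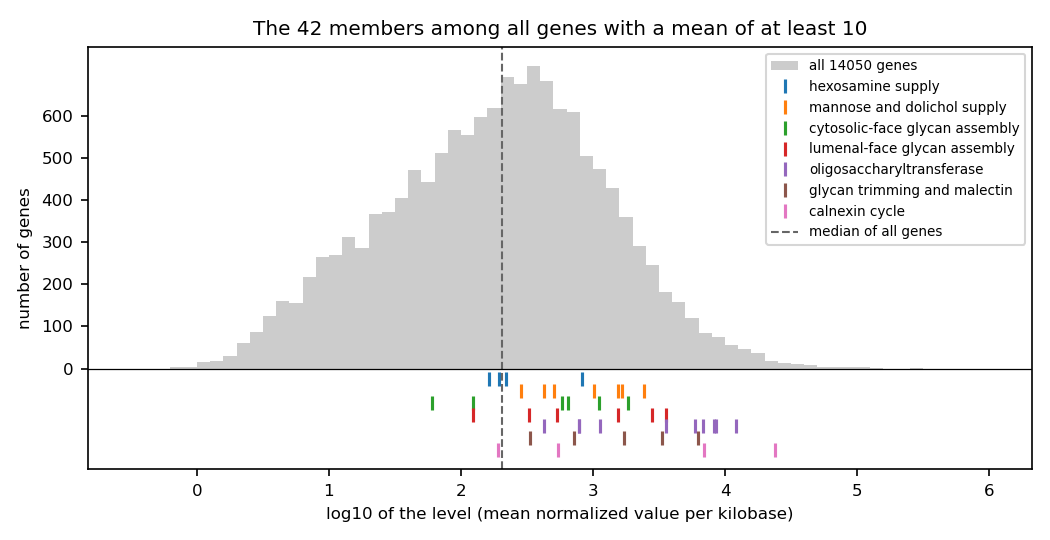
Histogram of the level per kilobase of all 14050 genes with a mean of at least 10, on a log10 axis, with the 42 genes as ticks below it in a row per role. Of the ticks, 36 lie to the right of the dashed median, and all 10 in the oligosaccharyltransferase row do.

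The 4 hexosamine genes make UDP-GlcNAc, the donor of the first sugars of the glycan. Their median level was 208 per kilobase, the lowest of the 7 roles, with 2 of 4 above the median of all genes by the canonical length. UAP1, the enzyme of the last step, stood apart with a mean normalized value of 2935 and a level of 825 per kilobase. GFPT1, which catalyses the rate-limiting step, had a value of 1401 on a transcript of 8665 bases and so a level of 162 per kilobase. GNPNAT1, the acetyltransferase, and PGM3, the mutase, were near it at 196 and 219 per kilobase. UAP1 had the highest level of the 4 under all 5 measures of length, while the lowest was PGM3 with all exons merged (60.6 against 158 per kilobase for GFPT1) and GFPT1 under the others.

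By the canonical length all 7 genes of mannose and dolichol supply were above the median of all genes, with a median of 1024 per kilobase. Dolichol-phosphate mannose synthase, which makes the lumenal mannose donor, has 3 subunits. DPM3, the small subunit that anchors the enzyme, was at 2439 per kilobase, the catalytic DPM1 at 1670 and the regulatory DPM2 at 1551 per kilobase. This order was not stable. By coding length DPM2 was highest (5612 against 3499 per kilobase for DPM3 and 2257 for DPM1), and in mean normalized value DPM3 was lowest (966 against 1761 for DPM1 and 1414 for DPM2). DOLPP1, a phosphatase that recycles spent dolichyl pyrophosphate, was at 1024 per kilobase, below all 3 by the canonical length but above DPM1 (586) and DPM2 (851 per kilobase) by the longest transcript. DOLK, the kinase that makes dolichyl phosphate and the only member with a single exon, was at 506 per kilobase, and SRD5A3, which acts in the making of dolichol from polyprenol, was at 423 per kilobase. PMM2, the phosphomannomutase whose loss causes the most common congenital disorder of glycosylation, was at 287 per kilobase.

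At the cytosolic face, DPAGT1, the enzyme of the committed step and the target of tunicamycin, had a mean normalized value of 3540 and a level of 1850 per kilobase. It was the highest of the 6 genes by the canonical length, but ALG13 was above it by the longest transcript (1105 against 1081 per kilobase) and in mean normalized value (4546 against 3540). With all exons merged, ALG2 was highest at 610 per kilobase and ALG13 at 555 was also above DPAGT1 at 549.6. ALG13 and ALG14 together form the transferase of the next GlcNAc. ALG13, its catalytic subunit, was at 1105 per kilobase and ALG14, its membrane anchor, at 123 per kilobase on a transcript of 9375 bases, a ratio of 8.95. When only coding bases were counted, the ratio was 0.746, so the order of this pair hung on the length chosen. The mannosyltransferases ALG2 and ALG1 were at 645 and 579 per kilobase, and ALG11, which adds the last mannoses before the glycan is flipped, was at 60.3 per kilobase. That was the lowest level of all 42 under each measure of length except coding length, by which UGGT2 was lower (202 against 266 per kilobase). ALG11 shares 5529 bases (84.9% of its transcript) with UTP14C on the same strand, whose mean normalized value was 1520 against 393 for ALG11, and how reads in the shared bases were assigned is not given in the sources used here.

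At the lumenal face, ALG3, the first mannosyltransferase there, had the highest level of the 6 genes at 3573 per kilobase, from a mean normalized value of 5546. ALG8, a glucosyltransferase, was at 2785 per kilobase, and ALG5, which makes the glucose donor, at 1547 per kilobase. ALG6, which adds the first glucose, was at 534 per kilobase. Of the other two mannosyltransferases, ALG12 was at 326 and ALG9, which acts right after ALG3, at 124 per kilobase. By the canonical length ALG9 alone of the 6 was below the median of all genes. ALG9 shares 1954 bases (31.7% of its transcript) with another gene model on the same strand, so its level is uncertain.

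The oligosaccharyltransferase had a median of 4747 per kilobase, 23.0 times the median of all genes, and all 10 of its genes were above that median. This was the highest of the 7 roles by the canonical length, but by coding length it was 14.5 times, below the 19.2 times of the calnexin cycle, and without division by length 8.28 against 27.96 times. Of the subunits that both forms of the enzyme contain, RPN1 was at 8487 per kilobase, DAD1 at 8214, RPN2 at 6866 and DDOST at 5943 per kilobase, all within the highest 10% of all genes. STT3A, the catalytic subunit of the form bound to the translocon, had a mean normalized value of 15981 and a level of 3551 per kilobase. STT3B, the catalytic subunit of the form that also works after translation, had 4662 and 1135 per kilobase, which made the ratio of STT3A to STT3B 3.13. The ratio stayed above 1 under 5 measures of transcript length, from 2.33 to 4.02. Of the 2 subunits found only with STT3A, KRTCAP2 was at 12010 and OSTC at 779 per kilobase. KRTCAP2 shares 83.7% of its transcript with another gene model on the same strand, and its level ran from 1647 to 19447 per kilobase over the 5 measures of length. The 2 thioredoxin-like subunits that work with STT3B, MAGT1 and TUSC3, were at 784 and 429 per kilobase, a ratio of 1.83 with a range of 1.70 to 2.31.

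Among the 5 trimming and early reading genes, those of glucosidase II had the highest transcript levels. Its beta subunit PRKCSH, which carries the ER retention signal, was at 6203 per kilobase and its catalytic subunit GANAB at 3331 per kilobase. Their mean normalized values were close, 13002 and 12774, and the ratio of GANAB to PRKCSH per kilobase ran from 0.512 to 1.01 with the measure of length. MOGS, glucosidase I, which removes the outermost glucose, was at 1719 per kilobase. MAN1B1, an ER mannosidase, was at 717 per kilobase, and MLEC, a lectin that binds glycans with part of their glucose left, was at 335 per kilobase on a transcript of 6341 bases. All 5 were above the median of all genes.

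In the calnexin cycle itself the transcripts of the chaperones were more abundant than those of the enzymes that send proteins back to them. CALR, the soluble lectin of the ER lumen, had a mean normalized value of 45156, rank 71 of all genes, and a level of 23754 per kilobase. CANX, its membrane-bound counterpart, had 34356, rank 101, and 6990 per kilobase. CALR was at the head of the 42 under each of the 5 measures of length, and the ratio of CALR to CANX was 3.40 with a range of 1.87 to 6.46. UGGT1, the glucosyltransferase that senses misfolded proteins, was at 541 per kilobase and its paralog UGGT2 at 189 per kilobase, a ratio of 2.86 with a range of 2.79 to 6.18. Over the same 5 measures, CALR was 28.9 to 48.1 times UGGT1, and CANX was 4.86 to 15.5 times UGGT1. The pairs with a fixed comparison are drawn in the plot of ratios. Of those 8, the order of GANAB and PRKCSH and that of ALG13 and ALG14 changed with the measure of length, and that of the other 6 did not change under these 5 measures.

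**Figure D3:**
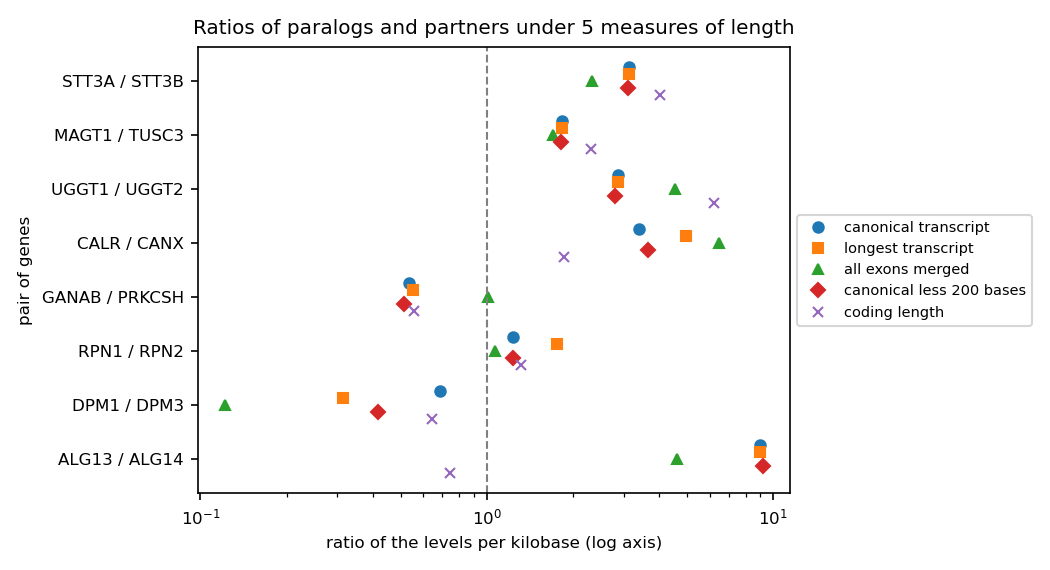
Ratio of the levels per kilobase of 8 pairs of genes, on a log axis, with a symbol for each of 5 measures of transcript length. A dashed line marks equal levels. The symbols of STT3A over STT3B, MAGT1 over TUSC3, UGGT1 over UGGT2, CALR over CANX and RPN1 over RPN2 all lie to its right, those of DPM1 over DPM3 all lie to its left, and those of GANAB over PRKCSH and ALG13 over ALG14 fall on both sides.

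Which genes were highest or lowest was only partly fixed by the measure of length. CALR, CANX, RPN1, RPN2, DAD1, DDOST and PRKCSH were in the highest 10 of the 42 under all 5 measures. GFPT1, PGM3, PMM2, ALG9, ALG11 and UGGT2 were in the lowest 10 under all 5. Of the 42, 34 were above the median of all genes under every measure, and ALG9 and ALG11 under none. The level of 37 members moved by over 2-fold between measures, in part because coding length raises and merged exons lower nearly every level.

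The 30 other genes of the pathway, listed for comparison, had a median of 330 per kilobase, with 23 above the median of all genes, against 924 per kilobase for the 42. By the canonical length LMAN2, a lectin of vesicle transport, had the highest level of the 30 at 7115 per kilobase, followed by MPDU1, which is needed for the use of dolichol-linked sugars, at 5071 and OST4, a small subunit of the oligosaccharyltransferase, at 3021 per kilobase. PDIA3, the disulfide isomerase that works with calnexin and calreticulin, was at 1827 per kilobase, below CALR and CANX. Some of the 30 are paralogs of a member. GFPT2 was at 188 and GFPT1 at 162 per kilobase, and PMM1 at 276 and PMM2 at 287. Their order turned with the measure of length, the ratio of GFPT1 to GFPT2 running from 0.820 to 2.39 and that of PMM2 to PMM1 from 0.769 to 2.04. UAP1L1 was at 50.03 and UAP1 at 825 per kilobase, and CLGN, the testis form of calnexin, at 253 against 6990 for CANX. ALG10 and ALG10B, a pair of paralogs without a counterpart among the 42 that add the last glucose, were at 64.0 and 12.24 per kilobase, a ratio of 5.23 with a range of 1.52 to 5.50.

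Only ALG1 had a near-identical copy elsewhere, that is, a match of at least 95% identity over at least 200 bases in a transcript of another gene that does not overlap it on the chromosome. Its transcript matched 15 other genes, the longest match being 992 bases (25.4% of ALG1) in FAM86EP, so part of its level is uncertain. The other 41 members had none by this rule, which leaves out genes that overlap a member in place. Such overlap touched, beside ALG9, ALG11 and KRTCAP2 above, further members. On the same strand, DDOST shares 417 bases (21.5%) with PINK1-AS and SRD5A3 shares 801 bases (19.7%) with another gene model. Overlaps on the opposite strand included ALG12 with 2085 bases (39.1%), ALG1 with 983 (25.2%), GNPNAT1 with 898 (23.2%) and DPAGT1 with 359 (18.8%). PGM3 shares 610 bases (10.0%) with DOP1A, also on the opposite strand. Since use of strand in counting is not given, the levels of these genes are uncertain too. The 42 genes lay on 17 chromosomes, 2 of them (ALG13 and MAGT1) on X. Counted from the outermost start of each gene, a divergent protein-coding neighbour that starts within 1000 bases and does not overlap was found for 6 of the 42 (14.3%) and for 11.0% of 13141 protein-coding genes with a mean of at least 10. Genes whose 5′ ends overlap, as those of ALG12 and CRELD2 do, are not in these counts. The closest pair was DOLK with NUP188, 96 bases apart, and ALG2 started 122 bases from SEC61B, a subunit of the ER translocon.

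The labelled line was checked against its markers. All 8 markers looked for in HEK293 cells were listed, from VIM with a mean normalized value of 18797 and NEFM with 3786 down to EYA1 with 166 and PAX2 with 27.7. Of the markers of other cell types, PTPRC of leukocytes was at 0.544, CD3E of T cells at 0.488, ALB of hepatocytes at 1.30 and PECAM1 of endothelium at 0.687, all under 10, while COL1A1 of fibroblasts was at 397. HBB of red cells, the other marker on that list, had no row in the tables used here. Their part in the members' levels was not tested.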

How the data were processed

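Poly(A)-selected, strand-specific libraries of 12 HEK293T samples were sequenced on the DNBSEQ platform. Per the study's methods, the authors aligned reads to GRCh38.p7 with SeqManPro, quantified genes in ArrayStar with QSeq as RPKM, and ran DESeq2 on them. The processing notes of the authors list DESeq2 1.40.1 and name GRCh38 and GRCh37. The signal used is the mean normalized value the authors deposited for each gene over all samples, and the 3 deposited tables hold the same means. Their other columns hold the authors' own comparisons of each compound with vehicle (log2 fold change, its error, statistic and p-values) and were not used. Use of strand in counting and the annotation are not given in the sources used here.

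The values behaved as scaled whole reads and not as RPKM. Of genes on 1 mRNA, ATP8 to ATP6 had a value ratio of 0.243 at a length ratio of 0.304, ND4L to ND4 had 0.170 at 0.216, and 23 genes shared the value 0.389, which is 5 times 0.0779, as 11 shared 0.467, which is 6 times 0.0779. Values were therefore divided by the canonical transcript length of GENCODE 44 on GRCh38. Of the symbols, 17944 matched a gene model, 920 of them by an older symbol, and a length was found for 89.8% of the 15638 genes whose mean reached 10. Since the means carry no depth per sample, no interval, test or error is given. Copies were sought with BLAST 2.17.0, and other steps ran in Python 3.11.15 with pandas 2.3.3 and numpy 2.4.6. Of these steps, only the merging of exon lengths and the exact motif search were tested on simulated data. Promoters came from RefSeq, without RPN1, STT3B, TUSC3 and MOGS, and protein sequences were not used here. The members and lists were chosen with earlier results of these data known. Genes named are all 42 members, listed pathway and marker genes, copies of members, and members next to a threshold. Neighbours, overlapping genes and CRELD2 were named, and ratios beyond the 8 pairs chosen, after their values were seen. Alternatives were other transcript lengths, no division, other backgrounds and totals, match limits and motif mismatches, and coding length, which was chosen after seeing the data.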

Additional observations from a re-analysis of the deposited data

How the results depend on the processing

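Of 101 alternative values, 64 stayed near the value reported, 33 moved and 4 turned direction, where near means within 1.5 times for ratios, role medians and counts, and equal after rounding for the share of the total. The ratio of GANAB to PRKCSH was 1.01 with all exons merged, that of DPM1 to DPM3 was 1.82 without division by length, and that of ALG13 to ALG14 was 0.746 by coding length, an alternative chosen after seeing the data. The hexosamine median was 0.967 of the median of all genes when 200 bases were taken off each length, against 1.01. The count of members above the median of all genes, 36 as reported, depended on the background. It was 33 against genes with a mean of at least 100 and 41 against all genes above 0. By coding length it was 39, and without division by length 40. The share of the 42 genes in the total was 0.783% without the 37 genes of the mitochondrial genome and 0.783% on levels per kilobase. Without the 100 most abundant genes, which include CALR, the other 41 members made up 0.774%. With 1 mismatch allowed, the ERSE was in 4 promoters, with ALG5 added (10.5% against 2.67%). The same change took the UPRE from 0 to 16 promoters (42.1% against 24.8%), the CARE from 0 to 5 (13.2% against 13.0%) and ERSE-II from 0 to 2 (5.26% against 2.26%). The median of the 10 oligosaccharyltransferase members ran from 8.28 to 23.1 times the median of all genes, and that of the calnexin cycle from 11.6 to 27.96 times. No paired analysis was possible because the values used are 1 pooled mean per gene.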
